A study of Mus musculus with 4 samples.

Results

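Mouse bone marrow-derived dendritic cells given the secreted protein Wnt2 were compared with the same kind of cells kept in control medium, over all 13120 genes listed for that pair of libraries, of 13685 listed for any pair in the series. Every listed gene was kept, 11435 of them protein-coding, and none was left out for its values. Many of the genes named below, however, were picked by their values. Cells of both groups came from bone marrow of C57BL/6 mice aged 4 weeks and spent 7 days in culture with GM-CSF (10 ng/ml) plus IL-4 (10 ng/ml), a cytokine pair that turns marrow progenitors into dendritic cells and related macrophage-like cells. The sources used here give no dose, origin or duration for Wnt2 and no number of mice. Total RNA was stripped of ribosomal RNA and sequenced with a stranded kit. The series text speaks of triplicates, while each group has 1 column of values, called a library here. Differences are thus between 2 single libraries, without replicates or p-values. The other samples of the series, given fibroblast-conditioned medium (CAF.CM) with or without an antibody to Wnt2, are used only where 4 values stand side by side.

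Wnt proteins bind Frizzled receptors on the cell surface. In the canonical branch this binding stops the breakdown of beta-catenin, which then joins TCF and LEF factors on DNA. Other branches run through calcium, protein kinase C and the cytoskeleton. In dendritic cells, Wnt signalling has been studied as an influence on antigen presentation and tolerance.

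Levels are given as CPM, read counts that the authors scaled to an effective size of each library, and a ratio is the log2 of Wnt2 over control medium. Values in brackets after a pair of levels are such ratios. The intervals given for some ratios are 95% exact binomial intervals, which cover counting error only. The words higher and lower mark differences of at least 2-fold. The listed genes held 143041842 reads in control medium and 154399767 in Wnt2, as recovered from the CPM. By the same fit 1 read was worth 0.00706 and 0.00651 CPM, for effective library sizes of 141544057 and 153655604 reads. Counting error was small for nearly all genes.

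Most of the transcriptome lay close between the libraries. Within 2-fold were 12359 genes, or 94.2%, and the median ratio was -0.02, with 5% of genes below -0.77 and 5% above 0.75. Higher with Wnt2 were 376 genes (2.87% of those listed) and lower were 385 (2.93%), and these shares are the background for each count of higher and lower genes below. For 289 of the genes higher and 276 of those lower, the whole interval lay beyond 2-fold. At 8-fold or more, 24 genes were higher and 17 lower. A gene under about 1 CPM in 1 library is listed only through the other, where its level is higher. The direction of such a gene was thus fixed by the listing. That holds for every gene given below with a level under 1 CPM in either library. Of the 4929 genes with a mean under 10 CPM, 231 were higher and 227 lower, and of the 77 genes at 1000 CPM or more, 3 were higher and 7 lower.

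**Figure D1:**
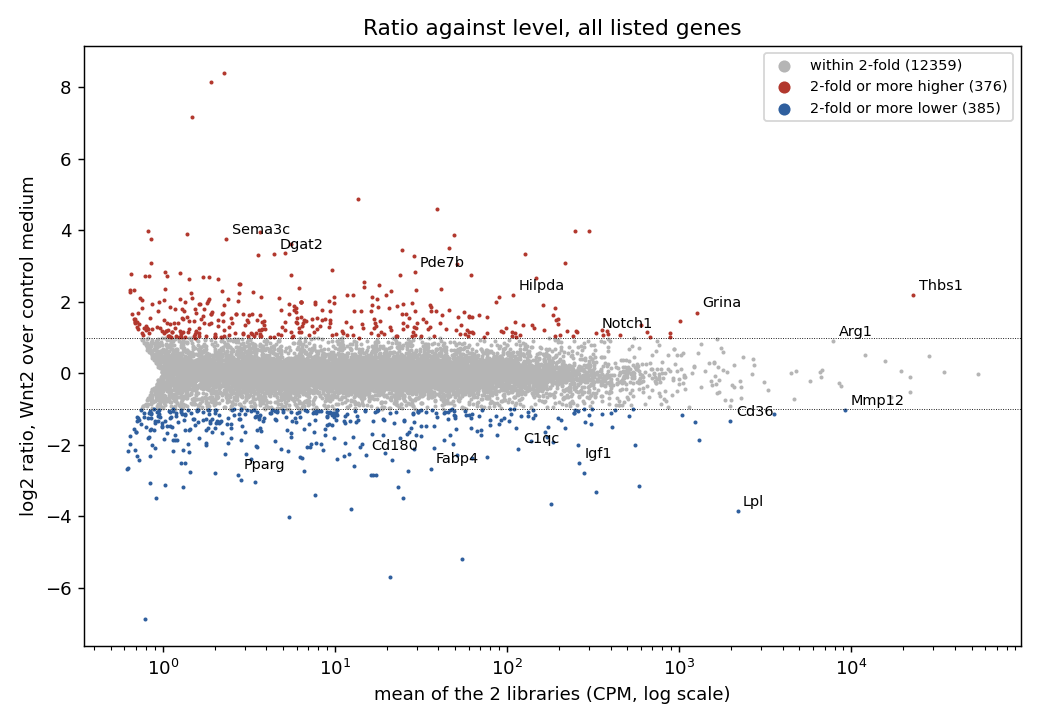
Log2 ratio of Wnt2 over control medium (vertical axis) against the mean of both libraries in CPM (horizontal log axis), 1 point per listed gene, with 376 genes higher in red, 385 lower in blue and 12359 within 2-fold in grey. The cloud is centred at -0.02, and Thbs1 and Lpl stand apart among genes of high level. The ratios of 4 genes with 3 or fewer reads in 1 library depend on the prior count.

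Dendritic cell identity genes were present in both libraries but several were lower with Wnt2. Of 14 markers of conventional dendritic cells 13 were listed, 4 were lower and none was higher, and their summed level went from 3888 to 1276 CPM. Itgax, which encodes the dendritic cell integrin CD11c, had 888 CPM in control medium and 223 in Wnt2 (ratio -1.99). Batf3, a factor needed by cross-presenting dendritic cells, had 14.1 and 5.21 CPM, and the other two were the MHC class II genes H2-Aa and Cd74. The factors Irf8 (145 and 140 CPM) and Irf4 (91.2 and 89.0 CPM) were within 2-fold, and so was Clec9a, at 16.5 and 29.6 CPM. Markers of macrophages were lower in 5 of 10 and above 0 in none, with a summed level of 2829 and 1940 CPM, while Csf1r, the receptor for M-CSF, had 1087 and 1056 CPM. Markers of monocytes were higher in 3 of 8 listed (Vcan, F13a1 and Cd14), and their sum went from 9605 to 11642 CPM. Markers of neutrophils were higher in 4 of 6 listed, from 871 to 1850 CPM in sum, most of it Mmp8. The neutrophil granule genes Elane, Mpo, Ltf, Camp and Ngp and the surface marker Ly6g were not listed. Bulk RNA cannot tell fewer cells of a type from less RNA of that type per cell, and the part of cell composition in the results below was not tested.

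Genes that carry the Wnt signal itself differed little. Of 46 genes for Wnt receptors, relay proteins, nuclear partners and secretion, 33 were listed and none was higher or lower, with a median ratio of 0.06 and a range of -0.38 to 0.85. The receptor genes with the most reads were Lrp6, a co-receptor, at 115 and 118 CPM, and Fzd7, at 56.6 and 87.1 CPM (ratio 0.62). Fzd1 had the highest ratio of the list, with 27.0 and 48.7 CPM. Ctnnb1, which encodes beta-catenin, had 347 and 360 CPM. Of 26 feedback and target genes known from other tissues only 11 were listed, and Axin2, Lef1, Nkd1, Lgr5 and Dkk1, commonly used as readouts of beta-catenin, were not among them. The listed targets went both ways, but Fosl1 and Apcdd1 were under 1 CPM in control medium and thus listed only through their Wnt2 level. Sox4 had 4.25 and 19.4 CPM (2.19), Fosl1 0.678 and 2.4 CPM (1.80), and Apcdd1 0.841 and 2.57 CPM (1.60), while Ccnd1, the gene of cyclin D1, had 11.4 and 3.67 CPM (-1.63) and Myc 4.79 and 2.05 CPM (-1.22). Of the transcript sequence of Sox4 and of Fosl1, 54.7% and 60.4% is shared with other annotated genes in words of 31 bases, so their values are less certain. Outside the lists, Dixdc1, whose protein shares the DIX domain of Dishevelled and Axin, had 1.99 CPM in control medium and 10.4 CPM in Wnt2 (2.38, interval 2.20 to 2.57). None of 26 listed genes of the protein kinase C, calcium and NFAT arm was higher or lower (median 0.02). Outside that list, the phospholipase C gene Plcb1 had 6.20 and 41.8 CPM (2.75). The calcium release channel gene Ryr1, also outside it, had 17.3 and 3.26 CPM (-2.40).

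Promoters were searched for letters recognised by TCF and LEF and by factors of pathways named below, to show where such letters occur in genes that moved. The sequences are RefSeq windows on GRCm38.p6, matched by gene symbol for 8942 of 11428 protein-coding symbols, and each search covered 300 bases, from 250 before to 50 after a transcript start, on both strands. A TCF/LEF match (CTTTGAA or CTTTGAT or CTTTGTA or CTTTGTT) was present in 15.2% of 289 windows of genes higher, 17.4% of 317 windows of genes lower, 11.3% of 10851 windows of genes within 2-fold and 16.9% of all 32851 windows in the table. The hypoxia element (ACGTGC or GCGTGC) was present in 19.7% of windows of genes higher, 13.9% of those lower, 26.3% of those within 2-fold and 16.3% of all. The PU.1 letters GAGGAAGT, read by the factor that directs myeloid development, were present in 8.52% of windows of genes lower, 3.11% of those higher, 3.22% of those within 2-fold and 3.20% of all. Both the hypoxia element and the E-box CACGTG can cover the same letters. That E-box, read by MITF and TFEB among others, was present in 7.96% of windows higher, 6.94% lower, 10.2% within 2-fold and 7.15% of all. AP-1 letters (TGAGTCA or TGACTCA) were present in 6.57% of windows higher, 5.99% lower, 3.62% within 2-fold and 5.20% of all. The other motifs were the cyclic AMP element TGACGTCA (1.38% of windows higher, 2.52% lower, 3.20% within 2-fold and 1.79% of all) and, with shares in the same order, NF-kappaB (GGGANTTCC or GGGACTTTC, 3.46%, 2.21%, 2.69% and 2.02%), the sterol element (TCACCCCAC or TCACCCCGC, 1.38%, 0.631%, 1.35% and 0.956%), CCAAT (36.0%, 40.7%, 37.5% and 37.4%) and C/EBP (TTGCGCAA, TTGTGCAA or TTGCACAA, 2.08%, 1.58%, 1.04% and 1.19%). The windows also differed in base composition, with a median GC content of 57.0% for genes higher, 55.3% lower, 60.7% within 2-fold and 52.7% for all, and its part in these shares was not tested. The 289 windows of genes higher came from 223 genes, and the 317 of genes lower from 235. A gene with several windows thus counted more than once, and shares by gene were not computed. A match is a string of letters, not a bound site.

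The 250 bases before the start are shown for 4 genes to illustrate such matches, which are in capitals. Cd36 (minus strand) and Serpinb2 (plus strand) hold TCF/LEF letters and went in opposite directions, Hilpda (plus strand) holds hypoxia letters, and C1qc (minus strand) holds the PU.1 letters on its opposite strand. All are written 5′ to 3′ along the gene.
Cd36, chr5:17835897-17836146: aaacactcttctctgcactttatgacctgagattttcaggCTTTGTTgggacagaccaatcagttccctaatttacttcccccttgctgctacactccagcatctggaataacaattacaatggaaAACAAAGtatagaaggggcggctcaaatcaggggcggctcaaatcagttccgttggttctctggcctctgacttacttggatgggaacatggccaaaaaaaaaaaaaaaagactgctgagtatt
Serpinb2, chr1:107511173-107511422: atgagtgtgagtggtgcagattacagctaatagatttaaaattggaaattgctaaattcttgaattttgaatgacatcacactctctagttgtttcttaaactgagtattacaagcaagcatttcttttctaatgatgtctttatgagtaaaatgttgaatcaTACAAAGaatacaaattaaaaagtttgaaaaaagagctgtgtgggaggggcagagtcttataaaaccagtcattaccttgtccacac
Hilpda, chr6:29272376-29272625: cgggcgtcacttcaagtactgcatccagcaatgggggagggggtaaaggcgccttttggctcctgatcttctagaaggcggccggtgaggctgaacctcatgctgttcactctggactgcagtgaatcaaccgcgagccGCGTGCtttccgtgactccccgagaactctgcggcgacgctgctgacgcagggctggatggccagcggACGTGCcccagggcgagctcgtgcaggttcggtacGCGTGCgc
C1qc, chr4:136892915-136893164: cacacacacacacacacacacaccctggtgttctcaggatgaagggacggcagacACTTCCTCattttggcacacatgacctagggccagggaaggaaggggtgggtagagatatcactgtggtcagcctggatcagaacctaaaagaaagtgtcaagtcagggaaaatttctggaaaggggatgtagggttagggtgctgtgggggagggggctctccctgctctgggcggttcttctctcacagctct

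Some genes of lipid uptake and handling were lower, and some that make triglyceride were higher. Of 14 listed genes of lipid uptake and lipoprotein handling, 4 were lower, 1 higher and 9 within 2-fold, with a median of -0.34 and a summed level of 10684 CPM in control medium and 3722 in Wnt2. Lpl, the lipoprotein lipase that frees fatty acids from lipoproteins, had 4096 and 283 CPM. Cd36, a fatty acid transporter and scavenger receptor, had 2846 and 1128 CPM (ratio -1.34, interval -1.34 to -1.33). Both were among the genes that lost the most CPM. Lipa, the lysosomal acid lipase, had 1781 and 696 CPM (-1.35), and Fabp4, a fatty acid carrier, had 62.2 and 9.80 CPM (-2.67). The exception was Vldlr, a lipoprotein receptor, with 11.4 and 24.0 CPM (1.07, interval 0.98 to 1.15).

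Of 18 listed genes of triglyceride synthesis and lipid droplets, 4 were higher and none lower, with a median of -0.02. Dgat2 had 0.791 CPM in control medium and 8.08 in Wnt2 (3.33), and was thus listed only through its Wnt2 level. Dgat1 had 16.9 and 48.4 CPM (1.52). Both encode the enzyme that adds the last fatty acid to triglyceride. Gpat3, an enzyme of the first step, had 3.62 and 16.1 CPM (2.15), with 23.2% of its sequence shared with other genes. Hilpda, a droplet protein that restrains lipolysis, had 39.2 and 178 CPM (2.18, interval 2.14 to 2.23). The droplet coat gene Plin2 was within 2-fold, at 573 and 519 CPM (-0.14), and so was the lipase gene Pnpla2, at 32.8 and 50.3 CPM. The higher genes of this group were thus enzymes of synthesis and Hilpda, not the coat genes.

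**Figure D2:**
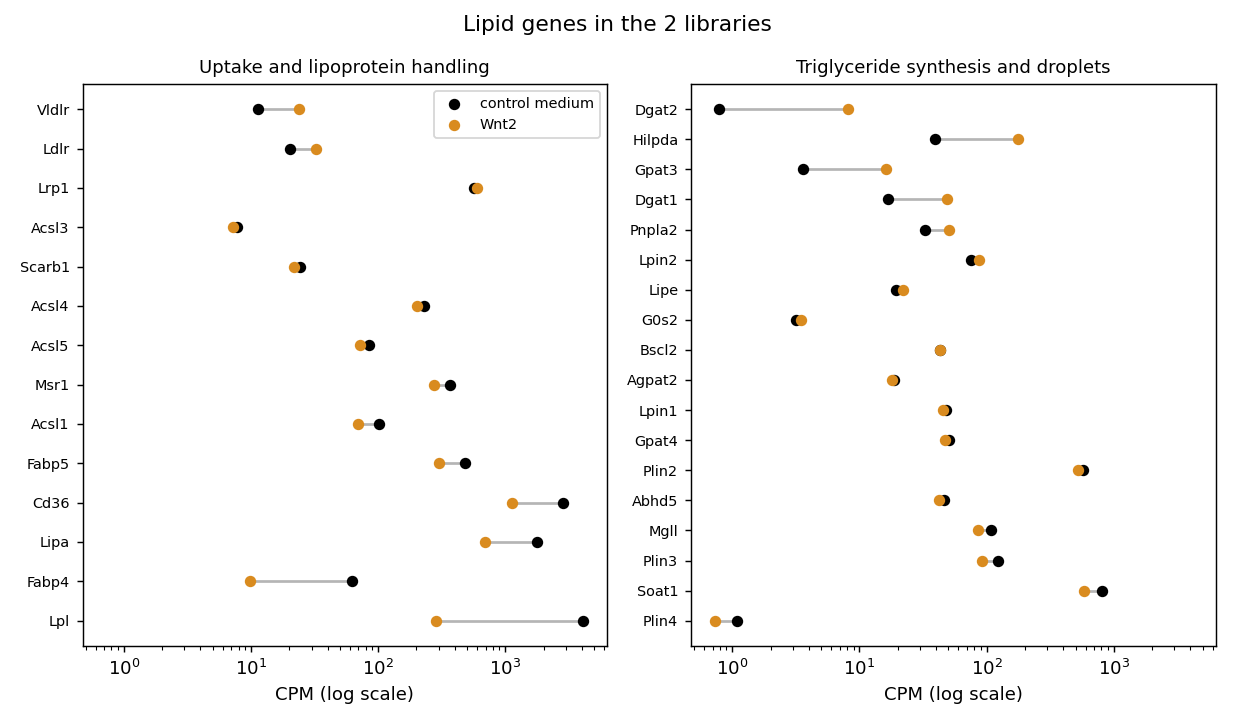
CPM on a log axis for each listed gene of lipid uptake (left) and of triglyceride synthesis and droplets (right), with control medium in black, Wnt2 in orange and a grey line joining both libraries. Lpl, Fabp4, Lipa and Cd36 lie lower with Wnt2, and Dgat2, Hilpda, Gpat3 and Dgat1 lie higher.

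Pparg and Nr1h3, nuclear receptors that act on lipid genes, were both lower, while none of 6 listed regulators of sterol synthesis was higher or lower (median 0.09). Pparg, the nuclear receptor that drives Cd36 and Fabp4 in many cells, had 4.83 CPM in control medium and 0.664 in Wnt2 (-2.84, interval -3.18 to -2.56). Pparg was thus listed only through its level in control medium. Of 17 listed PPAR targets and fatty acid oxidation genes, 3 were lower, 1 higher and 13 within 2-fold (median -0.15). The lowest ratio of that list, -2.84, was that of Pparg itself. Nr1h3, which encodes the sterol receptor LXR alpha, had 3.07 and 1.17 CPM (-1.38). Among 17 listed LXR targets and efflux genes, 3 were lower and 1 higher. Pltp, a phospholipid transfer protein, had 265 and 76.4 CPM (-1.79), Abcg1, a cholesterol exporter, had 169 and 73.8 CPM (-1.19), and Arl4c, a small GTPase, had 157 and 350 CPM (1.16). Angptl4, a PPAR target whose product inhibits lipoprotein lipase, went the other way, with 2.21 and 7.55 CPM (1.77). None of 26 listed sterol synthesis genes and none of 14 fatty acid synthesis genes was higher or lower.

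The gene Thbs1 had the largest share of the gain in reads. Thrombospondin-1 is a secreted protein that limits angiogenesis and can activate TGF-beta, and its transcripts took 0.817% of all listed CPM in control medium and 3.75% in Wnt2. By share of reads it was at rank 13 in control medium and rank 2 in Wnt2, and it made up 24.5% of the CPM gained over all genes. Arg1, the arginase of alternatively activated myeloid cells, gained next most among the named protein-coding genes, with 5479 and 10252 CPM (0.90). Fth1, the ferritin heavy chain, had 9836 and 14099 CPM (0.52), and Grina, which encodes a membrane protein of the TMBIM family, had 596 and 1941 CPM (1.70). Vegfa, the main angiogenic growth factor, had 1134 and 2192 CPM (0.95). On the other side, Lyz2, encoding lysozyme, had 25764 and 18050 CPM (-0.51), with 32.8% of its sequence shared with other genes. Psap, a precursor of lysosomal lipid-binding proteins, had 20863 and 13157 CPM (-0.67). Mmp12, the macrophage elastase, had 12343 and 6034 CPM (-1.03). The CPM were scaled to each library by the authors, and the part of so large a gain in 1 gene in the other ratios was not tested.

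**Figure D3:**
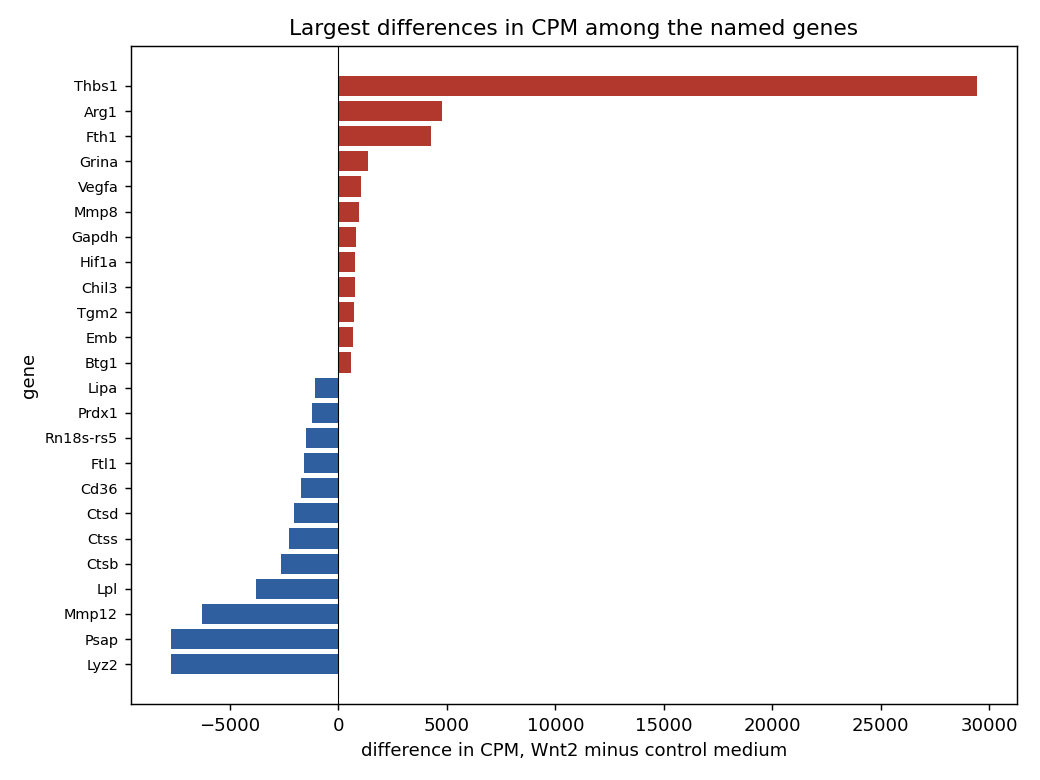
Difference in CPM, Wnt2 minus control medium, for the 12 named genes with the largest gains (red) and the 12 with the largest losses (blue). The bar of Thbs1, from 8256 to 37682 CPM, exceeds every other bar, and Lyz2 and Psap lost the most.

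Thbs1 lay in a group of secreted factors of vessels and clotting of which 5 of 19 listed were higher and none lower (26.3%, median 0.52). F13a1, a clotting factor subunit that crosslinks fibrin, had 20.4 CPM in control medium and 63.2 in Wnt2 (1.63), and Thbd, the receptor thrombomodulin, had 4.92 and 13.9 CPM (1.49). F13a1 is also among the monocyte markers given above. Serpins as a family were higher in 4 of 13 and lower in 1, and Serpinb8 among them had 29.98 and 89.8 CPM (1.58). Of 27 listed genes of the TGF-beta pathway 4 were higher and 1 lower. Ltbp1, which tethers latent TGF-beta, had 0.551 and 2.43 CPM (2.11), Inhba, an activin subunit, had 22.6 and 59.5 CPM (1.4), and Smad6, an inhibitory SMAD, had 2.33 and 5.01 CPM (1.1). The co-receptor Tgfbr3 had 4.78 and 2.23 CPM (-1.09).

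In the lists chosen here, genes that make, break or answer cyclic AMP, and feedback genes of MAP kinase signals, leaned higher. Of 22 listed cyclic AMP genes, 5 were higher and none lower, with a median of 0.43. Of these, 4 were phosphodiesterases, enzymes that break cyclic AMP down. Only 1 of the 12 listed target genes was higher, while 10 lay above 0 (median 0.38). Pde7b had 7.16 and 51.0 CPM (2.83, interval 2.74 to 2.93), Pde4d 12.03 and 29.8 CPM (1.31), Pde3b 58.2 and 140 CPM (1.26), and Pde4b 30.5 and 70.6 CPM (1.21). A relative that also breaks down cyclic GMP, Pde1c, went the other way, with 71.8 and 21.6 CPM (-1.73). The AP-1 gene Fosl2 had 90.8 and 281 CPM (1.63). Plcb1, a phospholipase C that acts below G protein-coupled receptors, had 6.20 and 41.8 CPM (2.75). Of 11 listed feedback genes of the MAP kinase pathway, 2 were higher and 10 lay above 0, with a median of 0.53. Dusp6, a phosphatase of ERK, had 70.4 and 154 CPM (1.13), and Spry2, a Sprouty inhibitor, had 3.69 and 7.54 CPM (1.03). Taken by symbol, the families were split. Of 17 phosphodiesterase genes 9 lay above 0 and 8 below (median 0.11), with 4 higher and 1 lower. Of 17 dual specificity phosphatase genes 9 lay above 0 and 8 below (median 0.02), with 1 higher and 1 lower. Immediate early factors split, with 3 of 30 higher and 4 lower. Ier3 had 33.0 and 146 CPM (2.15), whereas Atf3, a stress-responsive repressor, had 414 and 103 CPM (-2.01) and Egr2 had 169 and 58.4 CPM (-1.53). Of the Notch genes, the receptor gene Notch1 had 207 and 450 CPM (1.12) and the target gene Hey1 had 1.04 and 0.221 CPM (-2.16).

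Among receptors and bridging proteins for dead cells and modified lipoproteins, some were lower and the others lay within 2-fold. Of 29 listed scavenger and efferocytosis genes, 9 were lower (31.03%) and none was higher, with a median of -0.53 and 6 above 0. The summed level of the 15 efferocytosis genes was 3433 and 3317 CPM, and that of the 14 scavenger receptor genes 5384 and 3267 CPM. The 3 genes of complement C1q, which tags dying cells, moved together. C1qc had 188 CPM in control medium and 43.7 in Wnt2 (-2.10), C1qb 217 and 58.0 CPM (-1.90), and C1qa 40.2 and 12.5 CPM (-1.69). Axl, a receptor for dying cells, had 417.5 and 185 CPM (-1.17), and its ligand gene Gas6 had 13.02 and 4.43 CPM (-1.55). Cd163, the hemoglobin scavenger receptor, had 2.15 and 0.879 CPM (-1.28). Tgm2, a crosslinking enzyme also used in engulfment, had 1445 and 2169 CPM (0.59), and Itgav, an integrin subunit, had 105 and 162 CPM (0.63). Genes of C1q are also macrophage markers, whose summed level was lower as given above.

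In the list of immunoglobulin-like and TREM receptors, inhibitory ones were lower in 4 of 14 listed and higher in none, with a median of -0.69, where 1 of the 4, Clec12a, encodes a C-type lectin. Activating ones were split, with 2 of 11 higher and 2 lower. Lair1, a collagen receptor that restrains activation, had 85.4 and 17.6 CPM (-2.28). Siglecf, a sialic acid receptor best known from eosinophils and alveolar macrophages, had 11.4 and 1.73 CPM (-2.72). Lilr4b had 1441 and 637 CPM (-1.18), with 26.6% of its sequence shared with other genes. On the activating side, Trem3 had 0.382 and 2.45 CPM (2.64), while Trem2, a lipid sensor of macrophages, had 566 and 278 CPM (-1.03). Among Fc receptors, 2 of 8 were higher and 2 lower. Fcgr2b, the inhibitory receptor for IgG, had 293 and 615 CPM (1.07), and Fcgr4 had 36.3 and 78.0 CPM (1.1). Fcgr1, the high-affinity receptor, had 12.7 and 5.98 CPM (-1.08), and Fcrls had 29.5 and 4.07 CPM (-2.85).

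Microbial sensors also went both ways. Of 13 listed Toll-like receptors and co-receptors, 2 were higher and 2 lower. Tlr2, a receptor for bacterial lipoproteins, had 60.4 and 162 CPM (1.43), and Cd14, its co-receptor, had 405 and 899 CPM (1.15). Tlr1, a partner of Tlr2, had 13.6 and 4.07 CPM (-1.73), with 20.1% of its sequence shared with other genes. Cd180, a relative of Tlr4, had 25.2 and 5.12 CPM (-2.30). None of 11 adaptor genes was higher or lower. Formyl peptide receptor Fpr1, which senses bacterial peptides, had 7.09 and 32.4 CPM (2.19). In the IL-1 system, the cytokine gene Il1b had 7.19 and 35.3 CPM (2.30), and the antagonist gene Il1rn had 102 and 294 CPM (1.53). The decoy receptor Il1r2 had 0.671 and 2.62 CPM (1.94), and the signalling receptor Il1r1 had 3.82 and 10.9 CPM (1.51).

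Of 32 listed hematopoietic growth factor and receptor genes, 3 were higher (9.38%), 4 lower (12.5%) and 25 within 2-fold. Igf1, an insulin-like growth factor made by macrophages, had 446.6 CPM in control medium and 78.0 in Wnt2 (-2.52, interval -2.55 to -2.49). Pdgfb, a growth factor for mesenchymal cells, had 23.0 and 5.83 CPM (-1.98), and Kitl, stem cell factor, had 8.12 and 3.18 CPM (-1.35). Nrp1, a co-receptor for VEGF and semaphorins, had 252 and 81.3 CPM (-1.63). In contrast, the IL-6 family cytokines Osm (6.77 and 28.4 CPM, 2.07) and Lif (0.735 and 3.70 CPM, 2.31) were higher. Nrg1, an ErbB ligand, had 4.56 and 21.05 CPM (2.20), and Sema3c, a secreted semaphorin, had 0.311 and 4.36 CPM (3.75, interval 3.37 to 4.28).

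Among genes of lipid mediators, the receptor genes Ptgir (147 and 58.3 CPM, -1.34) and Ptger4 (35.8 and 14.6 CPM, -1.29) were lower, and so were the synthase genes Ltc4s (8.25 and 3.48 CPM, -1.24) and Tbxas1 (336 and 156 CPM, -1.1). Alox5, the first enzyme of leukotriene synthesis, had 20.8 and 48.8 CPM (1.23). Of 24 listed genes, 2 were higher and 4 lower. In arginine and polyamine metabolism 3 of 25 listed were higher and none lower. Arg2, the mitochondrial arginase, had 1.43 and 9.76 CPM (2.76), Smox, which oxidises spermine, had 38.4 and 115 CPM (1.58), and Ddah2, which clears a nitric oxide synthase inhibitor, had 2.79 and 7.52 CPM (1.43). Arg2 shares 23.6% of its sequence with other genes, and Ptger4 shares 27.1%.

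Lysosomal genes leaned lower as a group, mostly by less than 2-fold. Of 45 listed, 36 lay below 0 and 3 were lower, with a median of -0.22, and their summed level was 63955 CPM in control medium and 46275 in Wnt2. The median over all listed genes was -0.02, and the share of them below 0 was not computed. A lean of similar size was present outside the lysosome. NADH dehydrogenase genes lay below 0 in 43 of 45 (median -0.20) and proteasome genes in 39 of 48 (median -0.18). Ctsb, a lysosomal protease, had 4894 and 2243 CPM (-1.13), and Mitf, a factor of the lysosomal program, had 184 and 79.9 CPM (-1.21). Ctsc, which activates granule proteases, lay on the other side, at 447.6 and 726 CPM (0.70). All 16 listed genes of the proton pump that acidifies lysosomes lay below 0, with Atp6v0a1 at 80.2 and 35.4 CPM (-1.18). Annexins lay below 0 in 7 of 8, among them Anxa1, a calcium-dependent anti-inflammatory protein, with 602 and 212 CPM (-1.51). Galectins had a median of -0.66. S100 genes split, with S100a8 at 4.64 and 11.8 CPM (1.34), S100a11 at 29.8 and 89.9 CPM (1.59) and S100a4 at 29.4 and 8.84 CPM (-1.73), the last 2 being genes that share 48.9% and 58.1% of their sequence with others. S100a8 belongs to the neutrophil markers given above.

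**Figure D4:**
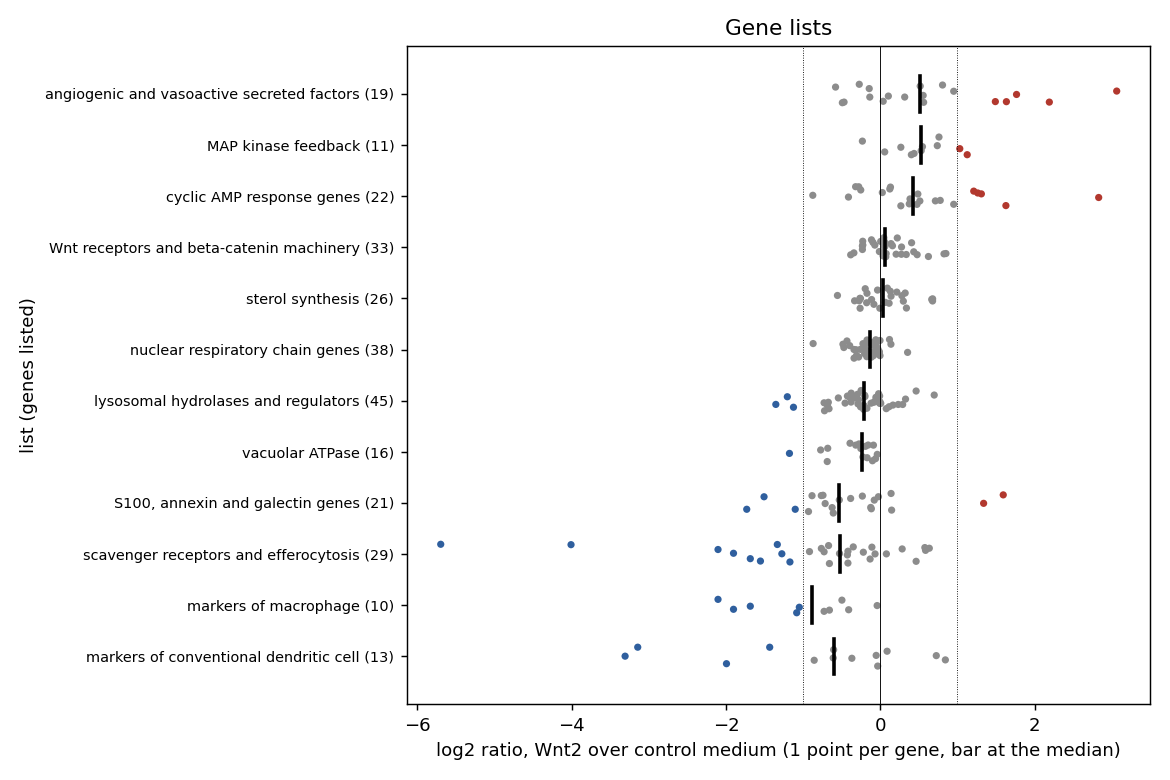
Log2 ratio of Wnt2 over control medium for the genes of 12 lists, 1 point per gene with genes higher in red and lower in blue, and a black bar at the median. Medians run from 0.53 for MAP kinase feedback to -0.89 for macrophage markers, and the Wnt machinery and sterol synthesis lists hold no gene beyond 2-fold.

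Many housekeeping families held no gene beyond 2-fold. Among them were 80 cytosolic ribosomal protein genes (range -0.86 to 0.33), 78 mitochondrial ribosomal protein genes, 48 proteasome genes, 59 histone genes, 52 translation initiation factor genes and 50 helicase genes of the DEAD and DEAH groups. Small shifts within these limits had a direction. NADH dehydrogenase genes lay above 0 in 2 of 45 (median -0.20), other nuclear genes of the respiratory chain in 3 of 38 (median -0.13), and proteasome genes in 9 of 48 (median -0.18). Autophagy genes (22), chaperones (34), amino acid transporters (18) and genes of cell death (30) also held none beyond 2-fold. Of 328 zinc finger genes named Zfp, 1 was higher and 1 lower. Proliferation genes gave no single direction. Of 32 listed replication genes 31 were within 2-fold and 22 lay below 0 (median -0.15). Pcna, the sliding clamp of replication, had 119.5 and 52.4 CPM (-1.19) with 38.0% shared sequence. Of 21 listed mitosis genes 2 were higher and 1 lower, and 13 lay below 0 (median -0.36). Their summed level was 105.5 and 105.9 CPM. Mki67, a marker of cycling cells, had the highest ratio of that list, with 16.6 and 41.0 CPM (1.31).

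Families of the cell surface differed in how many genes lay beyond 2-fold. None of 18 tetraspanin genes did, and of 204 solute carrier genes 3 were higher (1.47%) and 5 lower (2.45%). Of 153 genes named Tmem, 2 were higher and 4 lower. C-type lectins were higher in 3 of 29 and lower in 6. Klra2 (16.6 and 55.9 CPM, 1.75) and Clec4n, which encodes the fungal sensor dectin-2 (445 and 903 CPM, 1.02), were higher, and Clec4a3 (27.5 and 11.2 CPM, -1.29) was lower. Receptors named Gpr or Adgr were higher in 5 of 43 and lower in 7, with Adgrl2, a latrophilin, at 11.4 and 44.9 CPM (1.97) and Adgre4 at 2.37 and 0.247 CPM (-3.19). Integrins included Itga1, a collagen-binding subunit, at 68.1 and 257 CPM (1.92) and Itga6, a laminin-binding subunit, at 131 and 53.1 CPM (-1.31). The channel-like membrane protein genes Tmem176a (47.0 and 10.8 CPM, -2.12) and Tmem176b (77.9 and 19.8 CPM, -1.97), known from immature dendritic cells, were both lower. Among 52 genes matched as Rab GTPases 3 were lower, of which Rab7b is a GTPase, while Rab3il1 and Rab11fip4 encode partners of such proteins.

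By the cellular component annotation that the authors' table carries, 22.6% of 159 genes of the external side of the plasma membrane and 18.7% of 477 genes of the extracellular region were beyond 2-fold, against 5.80% of all listed genes. The share was 9.36% of 1880 plasma membrane genes, 3.68% of 2256 cytosolic genes, 3.43% of 1401 mitochondrial genes and 2.95% of 4308 nuclear genes. None of 161 ribosomal genes was beyond 2-fold. Gene level differs between components, and its part in these shares was not tested.

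**Figure D5:**
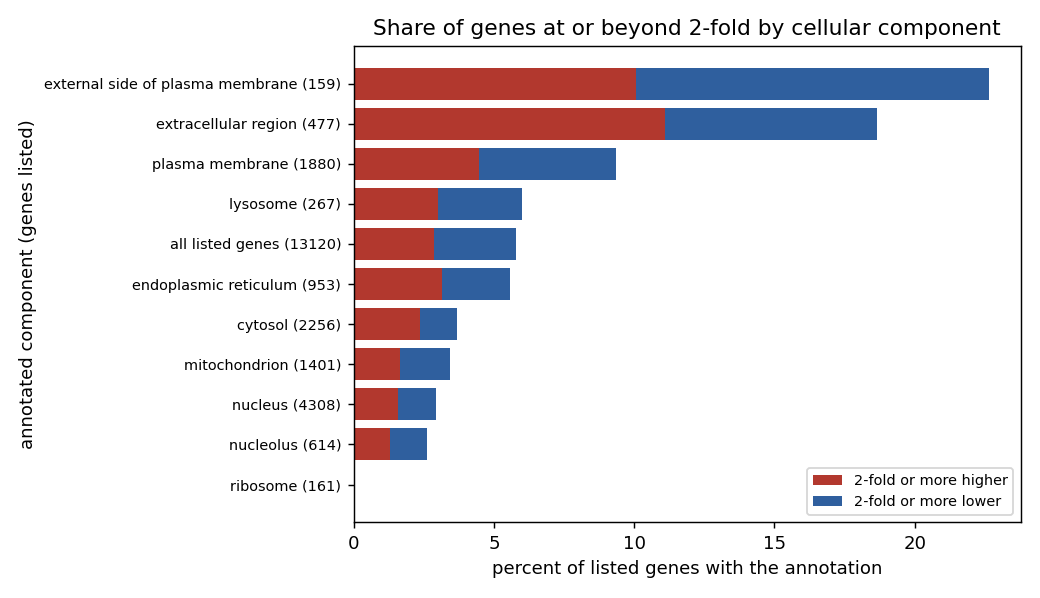
Percent of listed genes that were higher (red) or lower (blue) by 2-fold or more, for 10 cellular components and for all listed genes, with the number of genes in brackets. The external side of the plasma membrane reaches 22.6%, all genes 5.80% and the ribosome 0.

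For several of these genes the values in the conditioned medium samples stand beside those with Wnt2. A CAF.CM ratio would use the same control library, and the CAF.CM libraries are shallower, so only levels are given. The order below is control medium, then Wnt2, then CAF.CM, then CAF.CM with the antibody. Lpl had 4096, 283, 811 and 622 CPM. Dgat2 had 0.791, 8.08, 14.3 and 15.0 CPM. Hilpda had 39.2, 178, 274 and 550.0 CPM. Thbs1 had 8256, 37682, 9374 and 6335 CPM. Igf1 had 446.6, 78.0, 111 and 59.4 CPM, so that all 3 other libraries lay below control medium. Trem1 had 5.35, 52.6, 5.11 and 4.01 CPM, so that its Wnt2 library stands apart from the other 3.

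Transcripts that are not protein-coding were 1685 of those listed. Mirt2, in an entry typed as miscellaneous RNA, had 0.572 and 3.63 CPM (2.64). That entry shares 100% of its sequence with other entries, foremost another of the same name, so its value is less certain. The antisense transcript Dnmt3aos had 1.90 and 0.410 CPM (-2.18). The sources used here do not say whether counting used the strand, so antisense genes and their partners cannot be told apart. Genes of ribosomal RNA went both ways. Rn18s-rs5, which shares 66.7% of its sequence with other genes, had 2041 CPM in control medium and 558 in Wnt2 (-1.87), or 0.202% and 0.0555% of all listed CPM. The 2 mitochondrial ribosomal RNA genes together had 26084 and 36028 CPM. The signal recognition particle RNA genes Rn7s2 and Rn7s1 held 5.43% and 3.39% of listed CPM in control medium and 5.38% and 3.51% in Wnt2. Each shares 100% of its sequence with other genes, so the split between them is less certain.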

How the data were processed

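Total RNA of 1 ug per sample, depleted of ribosomal RNA, was made into stranded libraries, per the labels' protocols. For the authors' steps, the submitters' processing notes name STAR 2.4.2a, RSEM 1.2.29, edgeR, GRCm38.p5 and mm10. Their settings and the strand of counting are not given in the sources at hand. The authors deposited CPM with 3 decimals, scaled by library, for genes that reached about 1 CPM in 1 library, per the values in the table. Deposited log2 fold changes served as an alternative only, and the authors' deposited p-value columns were not used.

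The comparison, the lists, the families and the motifs were chosen with earlier results of these data known. The plan rested on reads recovered from the CPM. Values were whole multiples of 1 step per library within 0.1 step for 99.96% of control and 100% of Wnt2 values, and these reads served for ratios and intervals, not for a count test. Ratios used a prior count of 2. On simulated libraries of 13120 genes all 200 genes changed by 4-fold passed 2-fold, and 0 of 12920 unchanged genes did, with counting error as the only spread.

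Named genes are the 40 highest and 40 lowest named protein-coding genes with at least 200 reads over both libraries and 5 CPM in 1, the 20 largest gains and losses in CPM, members of 46 lists, 14 marker lists and 41 symbol families beyond 2-fold with 200 reads (or, where fewer than 3 passed, those with the most reads), and the 8 highest and 8 lowest genes that are not protein-coding. Only a part of them is given, and some are not reported here. Other genes named in the text, and the cellular components and gene neighbours, were chosen after their values were seen. For shared sequence, the longest GENCODE M21 transcript of a gene was split into 31-base words, and those found in another gene's longest transcript were counted as a percentage. Python 3.11.15, numpy 2.4.6, pandas 2.3.3, scipy 1.17.1 and matplotlib 3.10.9 were used. Alternatives were other scalings, prior counts, minimum levels, gene types and thresholds.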

Additional observations from a re-analysis of the deposited data

How the results depend on the processing

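With 1 library per group, no replicate could be left out and the spread between cultures is unknown. No paired analysis was possible because each group has 1 library and no test was run. The 376 genes higher and 385 lower became 220 and 234 with a minimum of 5 CPM in 1 library, and 968 and 1049 at a 1.5-fold threshold. They became 307 and 321 with protein-coding genes only, and stayed at 376 and 385 with a minimum of 100 reads. Scaling to total reads gave 383 and 378, median-of-ratios scaling 393 and 365, a prior count of 0.5 gave 378 and 390, and a prior count of 5 gave 370.0 and 379. The log2 fold changes in the authors' deposited table gave 378 and 390. Median-of-ratios scaling moved all ratios by 0.02. Of 101 list and family medians, 7 changed sign in some setting, none of them farther from 0 than 0.02. Of 272 named genes beyond 2-fold, none changed sign and 3 came within 2-fold in some setting, namely Abcb1b, Rpl3-ps1 and Rps27a-ps2. Depth limits little here, since 1 CPM stands for more than 100 reads in each library, but counting intervals leave out variation between cultures.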

Other observations

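Genes beyond 2-fold in the same direction were in places neighbours on the chromosome. Among 11164 protein-coding genes placed on GRCm38 with GENCODE M21, 16 runs of at least 3 consecutive listed genes were all higher or all lower. The search did not cover every chromosome. Consecutive means next in the listed order, so members can lie far apart, as S100a8 and Tchh with 2772294 bases between them. No share expected from gene order alone was computed, and these runs were picked after the values were seen. One run of 5 lies on chromosome 15. Parp10, a mono-ADP-ribosyltransferase (chr15:76231174-76243441), had 30.4 CPM in control medium and 77.7 in Wnt2 (log2 ratio 1.35). Grina (chr15:76246764-76249904) had 596 and 1941 CPM (1.70), and Spatc1 (chr15:76268089-76292572), known from sperm centrioles, had 0.841 and 4.78 CPM (2.49). Smpd5, which encodes a sphingomyelinase (chr15:76294348-76296896), had 4.15 and 45.2 CPM (3.44). Oplah, which encodes 5-oxoprolinase (chr15:76296601-76328015), had 5.49 and 30.8 CPM (2.48). Grina, Spatc1 and Smpd5 lie on the plus strand, and Oplah overlaps the end of Smpd5 on the minus strand, where reads of both cannot be told apart if strand was not used in counting. The flanking genes Plec (204.6 and 223 CPM, 0.12) and Exosc4 (10.4 and 13.6 CPM, 0.38) were within 2-fold.

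Another run of 5, lower with Wnt2, holds receptor genes of the immunoglobulin-like cluster on chromosome 7. Lair1 (chr7:4003402-4063204) is given above, and Pira2 (chr7:3836812-3845051) had 22.3 and 3.66 CPM (-2.60), with 97.2% of its sequence shared with other genes. Lilra6 (chr7:3908280-3915503) had 1.14 and 0.247 CPM (-2.14). A run of 3 on chromosome 1 holds the SLAM family genes Ly9 (91.4 and 31.7 CPM, -1.53), Slamf7 (131 and 48.9 CPM, -1.43) and Cd48 (49.8 and 18.1 CPM, -1.46), all receptors between immune cells. The formyl peptide receptor genes Fpr1 (7.09 and 32.4 CPM, 2.19) and Fpr2 (9.91 and 36.3 CPM, 1.87) on chromosome 17 were both higher, as was the hyaluronan synthase gene Has1 next to them (0.212 and 1.08 CPM, 2.28).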
